A study of Mus musculus with 6 samples.

Results

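Polycomb repressive complex 2 (PRC2) genes were examined in the RNA-seq of Dnmt3b+/− peripheral T-cell lymphoma (PTCL), as a chosen list of 10 genes that encode its core and some of its accessory subunits. All 10 were found among the 34245 genes of the table. RNA-seq covered 3 Dnmt3b+/− PTCL, each from the lymph node of a terminally sick FVB/N mouse. Each mouse carried a targeted and a normal copy of Dnmt3b in all its cells. Bisulfite sequencing of 2 Dnmt3b+/− PTCL and 1 Dnmt3a-/- PTCL was not analysed here. The RNA-seq tumors form 1 group without a control, so the comparisons are between genes within a tumor and between tumors, and no test between groups was made.

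PRC2 places methyl groups on lysine 27 of histone H3, and the trimethylated form, H3K27me3, marks genes that are kept silent. EZH2 and its paralog EZH1 are the alternative catalytic subunits, EED and SUZ12 are needed for a stable and active enzyme, and RBBP4 and RBBP7 are histone-binding subunits that other chromatin complexes share. Accessory subunits sort the core into the forms PRC2.1, with a Polycomb-like protein such as MTF2 or PHF19, and PRC2.2, with JARID2 and AEBP2.

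Levels are in FPKM, fragments on a gene per kilobase of its exons, relative to the depth sequenced. Tumors 1, 2 and 3 had depths of 30726570, 18969988 and 20770928 reads, as recovered from the lowest common values of the table. Reads recovered for the members ran from 167 to 5838 per tumor, and the intervals below are exact Poisson 95% intervals that cover counting error only. The label of a T-cell lymphoma was checked against 12 T-cell genes, and all 12 were above 1 FPKM in every tumor, beside 28.4% of the 34199 symbols of the table. T cells of the lymph node itself would also give these transcripts. Their summed level was 1880, 1595 and 1907 FPKM in tumors 1, 2 and 3, led by the CD8 coreceptor genes Cd8b1 (435, 166 and 443 FPKM) and Cd8a (259, 122 and 218) and the kinase gene Lck (160, 208 and 207).

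All 10 PRC2 genes exceeded 1 FPKM in every tumor, beside the same 28.4% of symbols. Ordered by mean FPKM they ran from Rbbp7 over Rbbp4, Suz12, Eed, Aebp2, Mtf2, Ezh2, Ezh1 and Phf19 to Jarid2. Of the 9 pairs of neighbours in this order, 7 overlapped in their ranges over the tumors. Within the tumors, Suz12 exceeded Eed and Eed exceeded Aebp2 in all 3, the latter in tumor 1 by less than the counting error, whereas the other 5 of these pairs changed order in at least 1 tumor. The ranges stood apart only between Rbbp7 and Rbbp4 and between Ezh1 and Phf19. Rbbp7 was the highest and Eed the member of rank 4 in each tumor, whereas Ezh2 took ranks 7, 5 and 8 in tumors 1, 2 and 3. The median of the members' means was 7.57 FPKM, and that of the 11191 genes with a mean of at least 1 FPKM was 5.70 FPKM.

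**Figure D1:**
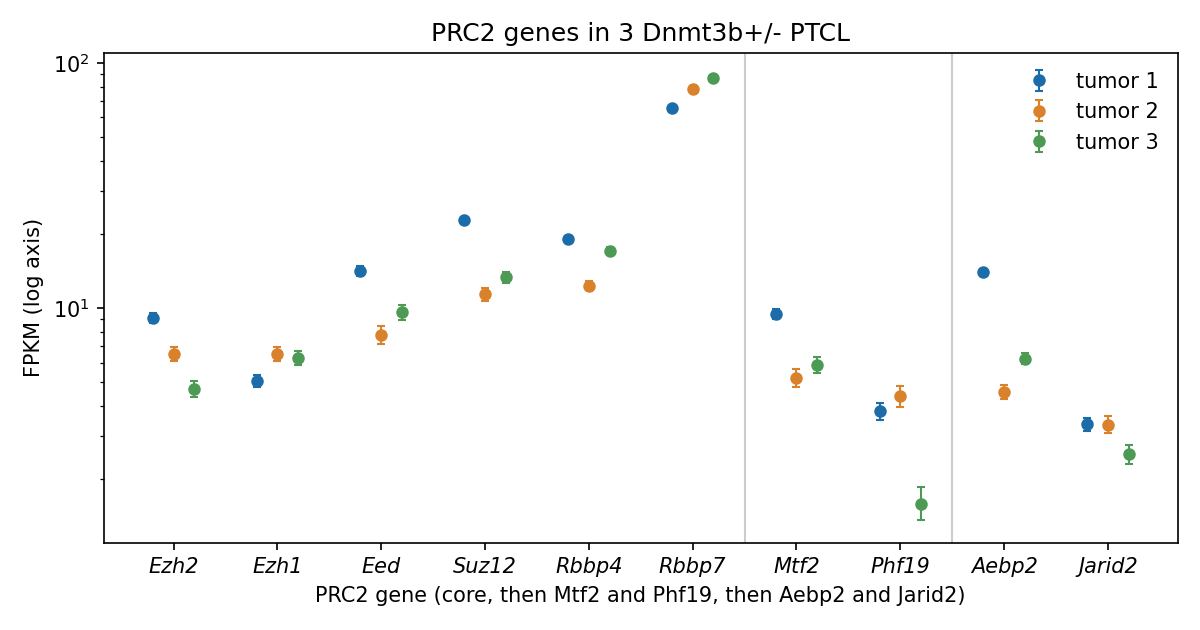
FPKM of the 10 PRC2 genes (log axis) in each of 3 Dnmt3b+/− PTCL, with bars for the exact Poisson 95% interval of a tumor's reads and grey lines between the core, the PRC2.1 and the PRC2.2 subunits. Rbbp7 lies above all other members in every tumor, at 65.3 to 86.8 FPKM.

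Ezh2 (ENSMUSG00000029687), which encodes the catalytic subunit typical of dividing cells, spans bases 47530139 to 47595341 of chromosome 6 in mm10. Its level was 9.09 FPKM in tumor 1 (95% interval 8.69 to 9.52), 6.50 in tumor 2 (6.07 to 6.96) and 4.68 in tumor 3 (4.33 to 5.05), with a mean of 6.76 ± 2.22 (SD, n = 3). Tumor 1 was thus the highest and tumor 3 the lowest, and the intervals did not overlap. Ezh1 (ENSMUSG00000006920), the paralog that is usually the more prominent in resting cells, spans bases 101191115 to 101226463 of chromosome 11. It was at 5.06 FPKM in tumor 1 (4.77 to 5.36), 6.49 in tumor 2 (6.08 to 6.92) and 6.28 in tumor 3 (5.89 to 6.68), a mean of 5.94 ± 0.773 (SD, n = 3). Tumor 1 was here the lowest, and tumors 2 and 3 lay within each other's intervals.

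The ratio of Ezh2 to Ezh1 FPKM, which the scaling of a library cannot change, therefore differed between tumors. It was 1.80 in tumor 1 (exact binomial 95% interval 1.67 to 1.94), 1.00 in tumor 2 (0.911 to 1.10) and 0.745 in tumor 3 (0.674 to 0.824). Ezh2 was in excess in tumor 1, both genes were level in tumor 2, and Ezh1 was in excess in tumor 3. Ezh2 made up 64.3%, 50.1% and 42.7% of the summed FPKM of both genes in tumors 1, 2 and 3. The mean ratio was 1.18 ± 0.549 (SD, n = 3), and without tumor 1 it was 0.874. In bulk RNA a smaller share of cells with a transcript and less transcript per cell cannot be told apart.

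**Figure D2:**
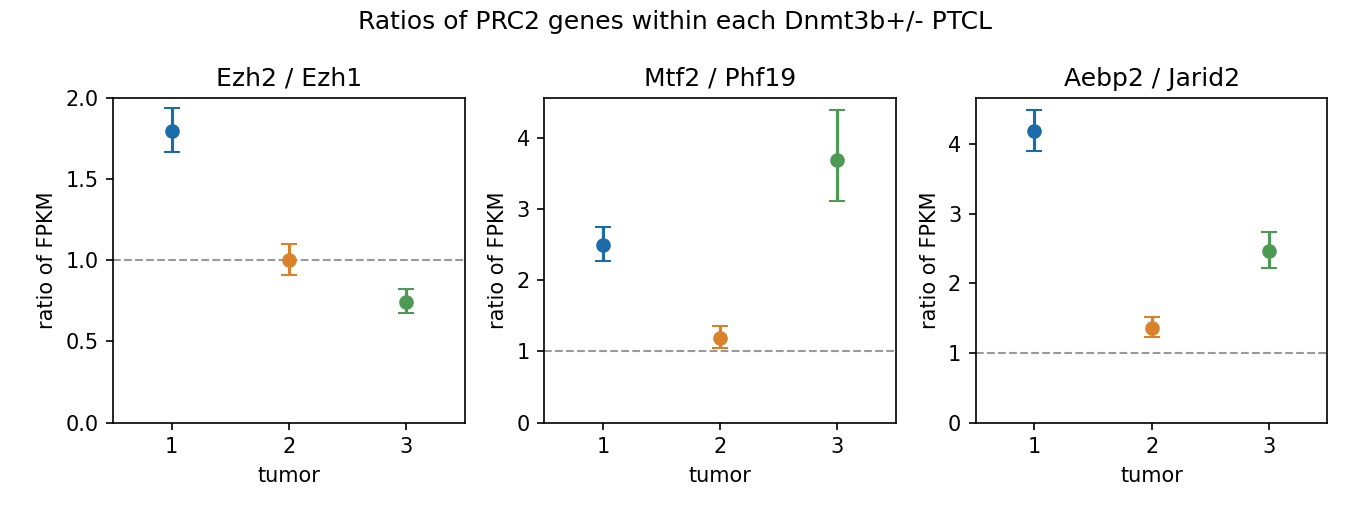
Ratios of FPKM within each of 3 Dnmt3b+/− PTCL for Ezh2 over Ezh1, Mtf2 over Phf19 and Aebp2 over Jarid2, with bars for exact binomial 95% intervals and a dashed line at 1. Ezh2 over Ezh1 lies at 1.80, 1.00 and 0.745 in tumors 1, 2 and 3, on both sides of the line.

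Promoter windows of 300 bases were taken from RefSeq (GRCm38.p6), with 250 bases before a transcript's start and 50 from it, and all 10 members had at least 1 window. Windows of both catalytic genes are shown because their levels went apart between tumors, and that of Suz12 because it also holds a searched word. Capitals mark any of the E2F words TTTCCCGC, TTTCGCGC, TTTGCCGC and TTTGGCGC, searched on both strands. The Ezh2 window is chr6:47594981-47595280 on the minus strand, the Ezh1 window chr11:101226414-101226713 on the minus strand, and the Suz12 window chr11:79992856-79993155 on the plus strand. In each, the last 50 bases lie in the first exon of a curated transcript, and predicted transcripts that start further upstream bring the exonic part of the Ezh2 window to 290 bases.
Ezh2: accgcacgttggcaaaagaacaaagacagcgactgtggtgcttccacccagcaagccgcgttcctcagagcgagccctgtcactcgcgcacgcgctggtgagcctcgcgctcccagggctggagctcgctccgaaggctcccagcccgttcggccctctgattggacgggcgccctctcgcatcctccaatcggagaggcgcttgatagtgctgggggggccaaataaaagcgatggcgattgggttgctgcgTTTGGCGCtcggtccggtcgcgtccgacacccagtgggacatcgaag
Ezh1: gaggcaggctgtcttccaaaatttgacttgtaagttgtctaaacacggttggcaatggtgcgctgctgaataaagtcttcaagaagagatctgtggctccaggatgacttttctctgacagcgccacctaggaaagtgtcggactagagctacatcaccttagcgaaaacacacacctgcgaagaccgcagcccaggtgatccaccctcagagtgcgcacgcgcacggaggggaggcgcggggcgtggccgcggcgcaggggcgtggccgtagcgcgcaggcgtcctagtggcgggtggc
Suz12: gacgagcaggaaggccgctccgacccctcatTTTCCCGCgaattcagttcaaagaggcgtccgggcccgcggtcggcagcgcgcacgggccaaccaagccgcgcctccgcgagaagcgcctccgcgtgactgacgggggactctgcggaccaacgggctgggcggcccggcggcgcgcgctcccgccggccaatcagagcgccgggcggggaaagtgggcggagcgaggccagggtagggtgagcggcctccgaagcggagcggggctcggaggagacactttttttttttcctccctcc

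Ezh2 carried TTTGGCGC 3 bases past the start, and Suz12 carried TTTCCCGC. Phf19 held the latter word on the opposite strand, and no word was found in windows of the other 7 members. Of the 27025 genes with a window, 2.61% held a word, as did 5 of the 17 proliferation genes with a window. The members' windows held 23.5 CpG at the median, and all windows held 7. A match is a description of these letters and shows no binding, and its absence says only that the letters are not in this window.

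Eed, the subunit that reads H3K27me3, was at 14.2, 7.77 and 9.61 FPKM in tumors 1, 2 and 3, with a mean of 10.5 ± 3.29 (SD, n = 3). Suz12, the scaffold of the complex, was at 22.8, 11.4 and 13.4 FPKM, with a mean of 15.9 ± 6.10 (SD, n = 3). Both genes were highest in tumor 1 and lowest in tumor 2. Their ratio moved little, as Suz12 was at 1.61, 1.47 and 1.39 times the FPKM of Eed in tumors 1, 2 and 3. Summed Ezh1 and Ezh2 FPKM were 0.620 times Suz12 in tumor 1, 1.14 times in tumor 2 and 0.820 times in tumor 3. The catalytic genes thus exceeded the scaffold gene only in tumor 2.

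Rbbp7, on the X chromosome, was at 65.3, 78.5 and 86.8 FPKM in tumors 1, 2 and 3, and its paralog Rbbp4 was at 19.1, 12.4 and 17.2 FPKM. Rbbp7 was the member with the most RNA per length in each tumor, at 3.41, 6.35 and 5.05 times Rbbp4. As both proteins also serve in nucleosome remodelling, deacetylase and assembly complexes, their RNA does not measure PRC2 alone. All 16 genes listed as partners in those complexes were above 1 FPKM in every tumor, beside 28.4% of all symbols. Of the 16, 1 varied at least 2-fold, beside 34.4% of genes with a mean of at least 1 FPKM. This was Hdac1, at 2.13 times. After median-of-ratios scaling it was at 1.89 times, and Chd3 moved from 1.81 to 2.04 times. The partners with the highest means were Chd3 at 36.8, 66.7 and 41.8 FPKM, Mta2 at 44.1, 41.1 and 46.4, and Chd4 at 32.8, 33.1 and 29.6 in tumors 1, 2 and 3.

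Of the Polycomb-like genes of PRC2.1, Mtf2 was at 9.48, 5.21 and 5.89 FPKM in tumors 1, 2 and 3. Phf19 was at 3.79 FPKM in tumor 1 (95% interval 3.49 to 4.11), 4.36 in tumor 2 (3.95 to 4.80) and 1.60 in tumor 3 (1.36 to 1.86). Tumor 3 stood below both others for Phf19, whereas tumor 1 stood above both others for Mtf2. FPKM of Mtf2 exceeded that of Phf19 in every tumor, by 2.50, 1.19 and 3.69 times. Part of the Mtf2 exons, 6.93%, overlaps Tmed5, as given below. Whether the small excess in tumor 2 holds without that part was not tested.

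Aebp2, a zinc finger subunit of PRC2.2, was at 14.1 FPKM in tumor 1 (13.7 to 14.5), 4.56 in tumor 2 (4.26 to 4.88) and 6.23 in tumor 3 (5.89 to 6.58). It had the widest spread of the members, with 3.08 times as much in tumor 1 as in tumor 2. Jarid2, which helps bring PRC2 to chromatin, was the least abundant member on average, at 3.36, 3.35 and 2.53 FPKM. Aebp2 exceeded Jarid2 in each tumor, by 4.19 times in tumor 1, 1.36 in tumor 2 and 2.46 in tumor 3.

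Summed FPKM of Mtf2 and Phf19 was 0.761 times that of Jarid2 and Aebp2 in tumor 1, 1.21 times in tumor 2 and 0.854 times in tumor 3, a mean of 0.942 ± 0.237 (SD, n = 3). The PRC2.2 genes were in excess in tumors 1 and 3 and the PRC2.1 genes in tumor 2. This order depends on the genes summed. Phf1, the remaining Polycomb-like gene, was at 17.5, 26.4 and 23.6 FPKM, more than Mtf2 in every tumor, and with it the ratio was 1.77, 4.55 and 3.55. Phf1 shares 1370 bases, 39.3% of its exons, with the oppositely oriented gene Cuta, which was at 37.8, 47.9 and 53.5 FPKM. Whether the authors' counting used strand is not given in the sources used here. Reads in the shared stretch therefore cannot be assigned to Phf1 or Cuta.

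The same limit applies to smaller stretches of other members. Exons of Rbbp4 share 796 bases with Gm26722, which was at 15.7, 7.998 and 15.7 FPKM, and 782 bases with Sync, at 0.466, 0.0184 and 0.118 FPKM. Mtf2 shares 395 bases with Tmed5, which was at 20.4, 11.9 and 14.5 FPKM in tumors 1, 2 and 3, more than Mtf2 in each. Of the 100-base words in the transcripts of a member, 14.5% were also found in transcripts of other genes for Rbbp4, 4.33% for Mtf2, 4.03% for Eed, 3.83% for Rbbp7 and 1.58% for Suz12. For Ezh1, Ezh2, Phf19, Jarid2 and Aebp2 no such word was found. Exons of Ezh2 nonetheless share 174 bases, 2.61% of their length, with Gm26625 on the opposite strand, which was at 1.06, 0.831 and 0.531 FPKM in tumors 1, 2 and 3. Eed, Suz12 and Rbbp7 share 261, 178 and 174 bases with other genes on the opposite strand.

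Between tumors, 2 of the 10 members differed at least 2-fold, Aebp2 by 3.08 and Phf19 by 2.73 times, beside 34.4% of the 11191 genes with a mean of at least 1 FPKM. Suz12 and Ezh2 lay just below the threshold, at 1.999 and 1.94 times, and Ezh1 varied least in unscaled FPKM, by 1.28 times. After median-of-ratios scaling Jarid2 did, by 1.27 times, with Ezh1 at 1.46. The median over the members was 1.82 times and that over the 11191 genes 1.68 times. Without tumor 1 or without tumor 3, 1 member differed 2-fold, beside 15.8% and 26.2% of all such genes. With each tumor rescaled to the same sum 4 members did, beside 39.4%, and a count near that share is no result about the members.

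**Figure D3:**
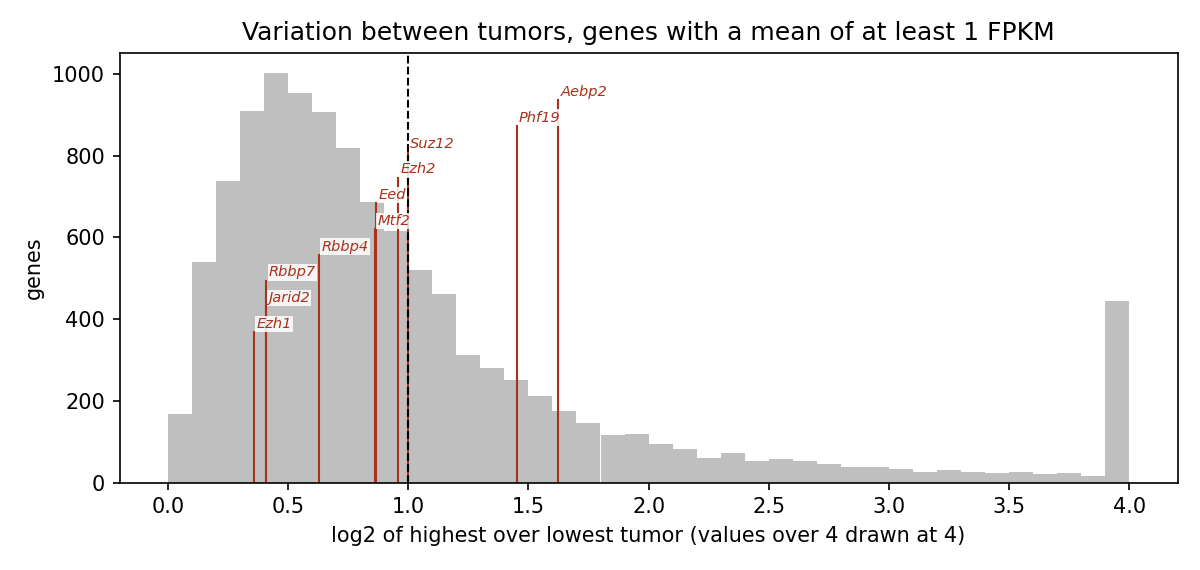
Number of genes by the log2 ratio of the highest to the lowest of 3 tumors, over 11191 genes with a mean of at least 1 FPKM (grey), with the 10 PRC2 genes as red lines and a dashed line at a 2-fold difference. Aebp2 and Phf19 lie beyond the dashed line and Suz12 at its edge.

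The highest value was in tumor 1 for 7 of the 10 members, in tumor 2 for Ezh1 and Phf19, and in tumor 3 for Rbbp7. Tumor 1 was also the highest for 50.6% of the 11191 genes. The median log2 ratio of these 11191 genes was 0.18 between tumors 1 and 2 and 0.24 between tumors 1 and 3. The cause of this shift was not tested. Summed FPKM of the whole table ran the other way, at 188740, 206902 and 223767 in tumors 1, 2 and 3. After division by a median-of-ratios factor that removes the median shift, 5 members were highest in tumor 1, beside 36.9% of the genes. These were Ezh2, Eed, Suz12, Mtf2 and Aebp2, while Rbbp4 and Ezh1 were then highest in tumor 3 and Jarid2 in tumor 2. Scaled Ezh2 was 8.23, 6.65 and 4.97 FPKM, and scaled Ezh1 4.58, 6.63 and 6.67.

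Ezh2 was set beside 20 proliferation genes because it is known to rise in dividing cells. Of these, 18 were highest in tumor 1, where Ezh2 was highest, beside 50.6% of the 11191 genes, and 16 after median-of-ratios scaling, beside 36.9%. The proliferation marker Mki67 was at 38.7, 30.4 and 12.0 FPKM in tumors 1, 2 and 3, and Top2a, which untangles DNA in mitosis, at 42.8, 17.3 and 11.8. Both were lowest in tumor 3, as were Ezh2, Phf19 and Jarid2. Pcna was at 88.0, 55.9 and 63.6 FPKM, Mcm4 at 42.7, 29.6 and 33.7, Mcm3 at 36.2, 23.4 and 23.1, Mcm2 at 17.1, 17.4 and 14.3 and E2f1 at 5.39, 5.47 and 5.19. A relation over 3 tumors was not tested.

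**Figure D4:**
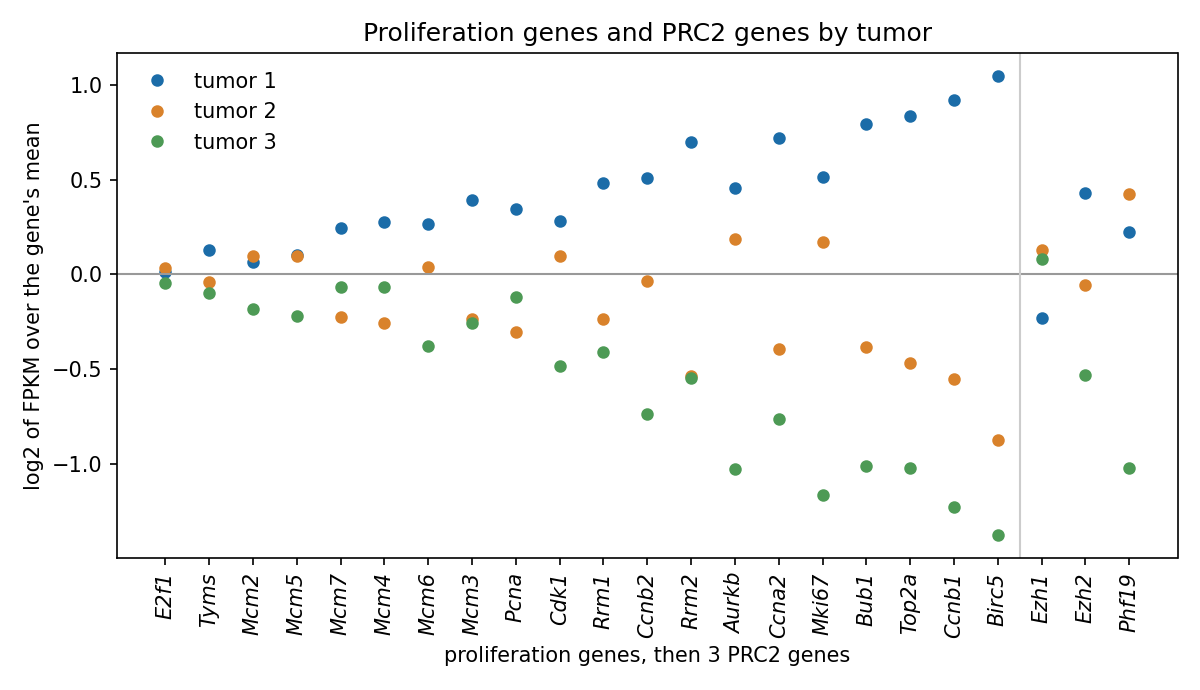
log2 of a tumor's FPKM over the gene's mean of 3 tumors, for 20 proliferation genes ordered by their spread and for Ezh1, Ezh2 and Phf19. Tumor 1 is highest for 18 of the 20 proliferation genes and for Ezh2, and lowest for Ezh1.

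Among 6156 genes with a mean of at least 5 FPKM, those whose centred log2 profile over the 3 tumors lay nearest to Ezh2 were Stard4, Rras, Got1, Mcoln2 and Tfdp1, at Euclidean distances of 0.02 to 0.03. Nearest to Ezh1 were Slirp, Ppt2, Vav1, Gm21982 and Sp2, at 0.01 to 0.02. Within 0.1 lay 30 genes for Ezh2 and 105 for Ezh1.

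Of 5 further PRC2 accessory genes, 4 had a mean of at least 1 FPKM. Of these 4, 2 varied at least 2-fold, Epop and Lcorl, beside 34.4% of the 11191 genes. Epop, whose product joins PRC2.1, was at 2.93, 7.45 and 2.14 FPKM in tumors 1, 2 and 3. Lcor, a gene with a PRC2.1 subunit among its products, was at 1.99, 1.56 and 1.26 FPKM, and its relative Lcorl at 1.71, 0.716 and 0.886. Ezhip, which encodes an inhibitor of PRC2 and is listed in the table under an older symbol, had no read in any tumor. For a count of 0 the exact Poisson 95% interval reaches 3.69 reads.

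Of the H3K27 demethylases, which remove the mark that PRC2 sets, Kdm6a was at 9.07, 7.75 and 10.4 FPKM in tumors 1, 2 and 3 and Kdm6b at 5.41, 3.16 and 4.82. Kdm6a exceeded Kdm6b in each tumor, by 1.68, 2.45 and 2.16 times. Uty, the Y-linked relative of Kdm6a, had no read in any tumor.

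PRC1, the companion complex that ubiquitinates histone H2A and in some of its forms binds H3K27me3, was broadly expressed. Of its 22 genes, 19 were at 1 FPKM or more in every tumor, beside the 28.4% of all symbols. The Polyhomeotic genes Phc2 and Phc3 were at 9.03, 14.7 and 11.4 and at 21.1, 5.37 and 6.01 FPKM in tumors 1, 2 and 3. Phc3 shared with Aebp2 the excess in tumor 1. Pcgf2 fell short of 1 FPKM only in tumor 3, at 0.819 FPKM, Scmh1 was at 0.471, 0.157 and 0.523, and Scml2 was near the limit of detection. Of 6 genes of the H2A deubiquitinase, 5 were above 1 FPKM in every tumor, led by Foxk1 at 12.2, 14.3 and 13.3 FPKM, Foxk2 at 13.9, 8.49 and 7.98 and Asxl1 at 13.3, 8.55 and 8.10.

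Of 27 genes known as targets of H3K27me3 in other tissues, 22 had whole reads in all tumors. Of these 22, 10 had no read in any tumor, among them Pax3, Pax6, Foxa2 and Isl1, beside 42.7% of the 31383 symbols with whole reads in all tumors, which is near the share in the list. No more than 3 reads per tumor were found for 17 of the 27, beside 47.9% of symbols, and 20 stayed below 0.2 FPKM in every tumor, beside 53.7%. The marks themselves were not measured, so a low level here does not show that PRC2 holds these genes. Lhx2 had the next highest mean after the Cdkn2 genes, at 0.467, 0.792 and 0.252 FPKM.

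Cdkn2a (ENSMUSG00000044303), which encodes the cell cycle inhibitor p16INK4a and the p53 regulator p19ARF, had the highest mean of this list. It was at 7.22 FPKM in tumor 1 (260 reads) and 9.08 in tumor 3 (221 reads), but at 0.0900 in tumor 2 (2 reads). Tumor 1 was 80.3 times tumor 2, with a counting interval of 22.0 to 666.2, and tumor 3 was 101 times tumor 2, with an interval of 27.6 to 839. A gene-level value does not separate the products. The neighbouring Cdkn2b was at 0.888, 0.416 and 1.52 FPKM, also lowest in tumor 2. Of the members, Eed, Suz12, Rbbp4, Mtf2 and Aebp2 were likewise lowest in tumor 2. Ezh2, Phf19 and Jarid2 were lowest in tumor 3, and Ezh1 and Rbbp7 in tumor 1. The Ezh2 to Ezh1 ratio of tumor 2, 1.00, lay between those of the other tumors. A relation of Cdkn2a to the PRC2 genes was not tested.

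**Figure D5:**
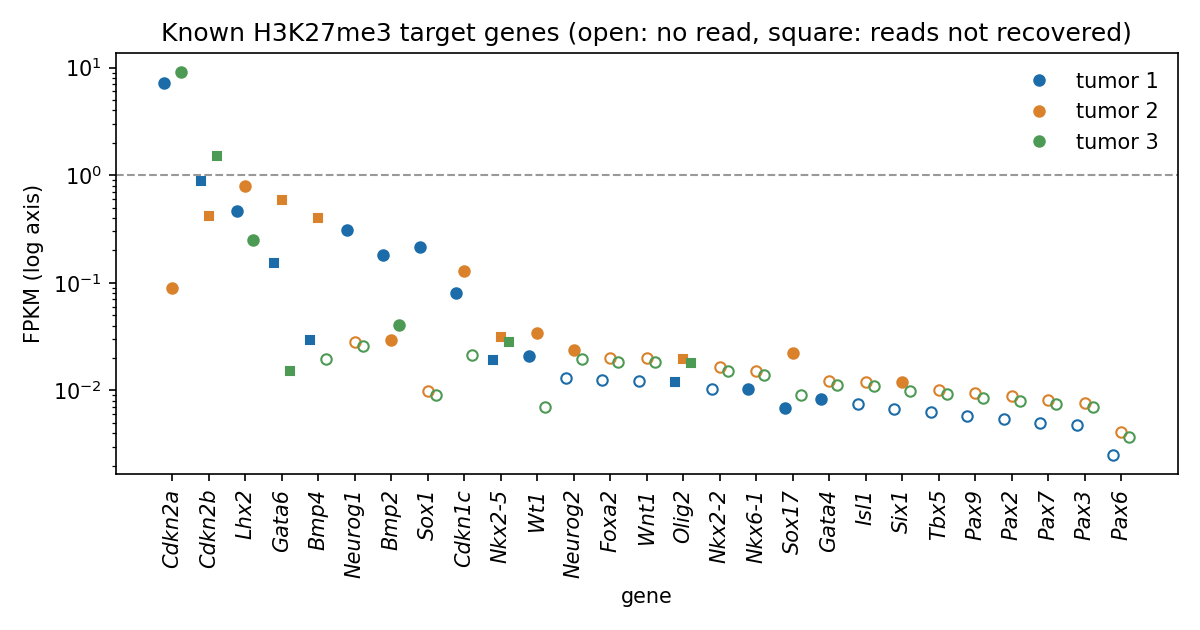
FPKM (log axis) of 27 known H3K27me3 target genes in 3 Dnmt3b+/− PTCL, with open circles where no read was recovered (drawn at the value the table gives), squares where reads could not be recovered and a dashed line at 1 FPKM. Cdkn2a reaches 7.22 and 9.08 FPKM in tumors 1 and 3, and only Cdkn2b also passes 1 FPKM.

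Genes listed for other cell types differed in level between the tumors, and the cells that gave their RNA were not identified. Tumors 1, 2 and 3 held the highest FPKM for 50.6%, 33.7% and 15.7% of the 11191 genes, and for 36.9%, 36.9% and 26.3% after median-of-ratios scaling. Of 9 macrophage and monocyte genes, 8 were highest in tumor 1, with sums of 437, 148 and 37.2 FPKM in tumors 1, 2 and 3, led by Lyz2 at 215, 33.1 and 20.3, C1qa at 74.5, 24.1 and 1.44 and C1qb at 64.4, 20.6 and 1.59. Of 7 erythroid genes, 6 were highest in tumor 1 (sums of 202, 38.4 and 4.77 FPKM), led by the globin genes Hba-a1 (92.3, 19.6 and 1.90), Hba-a2 (40.7, 8.22 and 0.0722, the last from 1 read) and Hbb-bs (35.3, 6.93 and 1.25). All 9 pancreatic acinar genes were highest in tumor 2, at a summed 459 FPKM against 91.8 in tumor 1 and 0.677 in tumor 3, led by Ctrb1, Prss2 and Cela2a at 198, 52.1 and 50.7 FPKM there. Of 9 fibroblast and endothelial genes, 6 were highest in tumor 2, or 7 after scaling, with sums of 24.0, 55.3 and 5.44 FPKM. Highest in mean were Pecam1 (12.2, 10.9 and 4.86) and the collagen genes Col1a1 (1.63, 15.5 and 0.315) and Col3a1 (1.86, 14.3 and 0.00490, the last from 1 read). Pecam1 was highest in tumor 1 before scaling. The endothelial genes Cdh5 (0.805, 1.39 and 0.126) and Kdr (0.483, 0.374 and 0.0960) were lower than Pecam1 in every tumor.

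Of 7 B-cell genes, 6 were highest in tumor 3, with sums of 63.3, 50.5 and 119 FPKM, led by Cd79a at 23.1, 7.31 and 49.0 and Cd79b at 20.1, 3.72 and 35.5, whereas Cd22 was highest in tumor 2, at 5.84, 36.5 and 13.9. The 3 genes of CD4 T cells summed to 36.5, 7.995 and 14.7 FPKM, with Cd4 itself at 28.4, 4.28 and 8.22, Foxp3 at 5.12, 1.07 and 3.32 and Zbtb7b at 3.07, 2.65 and 3.18. Of 7 neutrophil genes, S100a9, S100a8 and Ltf were highest in tumor 1 and Camp in tumor 3, Mpo and Ly6g had 1 read in tumor 1 and none in the others, and Elane, a defining gene of neutrophil precursors, had no read in any tumor. The 7 summed to 36.5, 1.45 and 15.5 FPKM, led by S100a9 (22.6, 1.01 and 10.4) and S100a8 (13.2, 0.228 and 4.30), with Camp at no more than 0.572 FPKM. In unscaled FPKM, macrophage and erythroid sums were highest in tumor 1 and lowest in tumor 3, as were Ezh2 and Jarid2. Sums of CD4 T-cell and neutrophil genes, the latter mostly S100a8 and S100a9, were highest in tumor 1 and lowest in tumor 2, as were Eed, Suz12, Rbbp4, Mtf2 and Aebp2, and sums of acinar and of fibroblast and endothelial genes were highest in tumor 2 and lowest in tumor 3, as was Phf19. For Jarid2, tumors 1 and 2 differed by less than the counting error. After median-of-ratios scaling, Jarid2 was highest in tumor 2 and Rbbp4 in tumor 3. The part of these cell types in the levels of the PRC2 genes was not tested.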

How the data were processed

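RNA was measured in 3 Dnmt3b+/− PTCL. The authors trimmed the reads, aligned them to mm10 with STAR, counted them over the merged exons of a gene, and deposited FPKM on a linear scale, which were not pooled over tumors. The submitters' processing notes also name DESeq2, which was not used here, and MethylDackel 0.3.0.1, for the bisulfite data that were not analysed here. The version of STAR is not given in the sources used here.

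The members and gene lists were chosen with earlier results of these data known. The rule for named genes takes all members, all further PRC2 accessory and demethylase genes, the 3 highest of other lists, targets at 1 FPKM or more in a tumor, 5 proliferation genes and 5 nearest profiles for Ezh2 and Ezh1. Of these, 1 gene is not reported here. Pax3, Pax6, Foxa2, Isl1, Hdac1, Pcgf2, Scmh1, Scml2, Elane, Mpo, Ly6g, Ltf, Cdh5, Kdr and the overlapping genes lie outside this rule, and their choice came after seeing their values.

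Where no read fell on a gene the table holds the value of 0.9 read, and this gave the depth. Reads followed from exon lengths of GENCODE M21 and came out whole in all 3 tumors, within 0.01 read, for 92.0% of genes of known length. Of the symbols, 26 had become dates and were restored, and of repeated symbols the row with the highest mean was used. All values are descriptive. With 1 group there is no comparison between groups, and genes were not tested against each other within tumors because the members were chosen with results known. Alternatives were each tumor left out, rescaling, other thresholds, filters and pseudocounts, Phf1 added, reads in place of FPKM and repeated symbols summed. Of the steps, only the recovery of depth and reads and the count of genes varying 2-fold were run on simulated data. The simulation used the same 0.9 read and the same exon lengths, so it could not test these 2 assumptions. The work was done in Python 3.11 with NumPy 2.4.6, SciPy 1.17.1, pandas 2.3.3 and, for plots, matplotlib 3.10.9.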

Additional observations from a re-analysis of the deposited data

How the results depend on the processing

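Of 100 values recomputed under the alternatives for 17 results, 80 stayed within the spread of the tumors or, for counts and shares, within 1.5 times. This is no measure of stability for 46 of the 100. Of these, 36 are means with 1 of 3 tumors left out, which cannot move by 1 SD, and 10 sum the rows of a repeated symbol, which no member has. Of the 54 others, 34 stayed within these limits. No mean of a member moved by more than 1 SD with median-of-ratios factors. These factors were 1.10, 0.979 and 0.941 for tumors 1, 2 and 3. So close to 1 they could hardly move a mean, and these means are counted among the 34. With each tumor rescaled to a sum of 1000000, every mean was larger by construction, at 28.7 for Ezh1, 33.5 for Ezh2, 51.8 for Eed, 78.6 for Suz12, 79.3 for Rbbp4, 371 for Rbbp7, 15.1 for Jarid2, 33.9 for Mtf2, 16.1 for Phf19 and 41.5 for Aebp2. The number of members varying 2-fold was then 4, beside 39.4% of all genes. It was 7 at a threshold of 1.5, where 62.8% of all genes varied, and 1 to 2 with a tumor left out, where 15.8% to 26.2% of all genes did. The PRC2.1 to PRC2.2 ratio was 3.29 with Phf1 added and 0.526 from recovered reads, which are not divided by gene length. Target genes with at most 3 reads in every tumor numbered 17.

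The main limits are the 3 tumors, the lack of a control and the differing levels of genes listed for other cell types. RNA does not give the amount of the proteins or of H3K27me3. No paired analysis was possible because the RNA-seq tumors form a single group.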
